A study of Homo sapiens with 4 samples.

Results

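The addition of palbociclib to indisulam was examined in SUM159, an established cell line of triple-negative breast cancer, by comparing the library of cells treated with both drugs (the combination) with the library of cells treated with indisulam only. All 11343 genes with a mean of at least 5 CPM (counts scaled to a library total of 1e+06) over these 2 libraries were taken, out of 60279 genes listed in each table, and they held 99.1% of the gene counts of the indisulam library and 99.0% of those of the combination library. The study had 4 conditions with 1 library each, and the untreated and palbociclib-only libraries are given here as the same drug step without indisulam. The sample labels give 10 days in 0.5 µM palbociclib, 2 µM indisulam or both. The series text instead gives 16 h in 2 µM palbociclib, 3 µM indisulam or both. The paper describes RNA sequencing of SUM159 cells under each setting, as separate experiments. The labels and the series text thus differ, so neither the dose nor the duration is certain. Indisulam was present on both sides of the comparison, and all cells were of the same line.

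Palbociclib inhibits CDK4 and CDK6, the kinases that cyclin D activates to phosphorylate the retinoblastoma protein (RB). Without this phosphorylation RB and its relatives keep E2F target genes off, and the DREAM complex keeps genes of late G2 and mitosis off through promoter elements named CHR (cell cycle homology region) and CCAAT boxes bound by NF-Y. Indisulam attaches the RNA-binding protein RBM39, a splicing factor, to the ubiquitin ligase receptor DCAF15, and RBM39 is then degraded.

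The libraries held 16712174 (indisulam) and 14359529 (combination) counts in genes, and those of untreated and palbociclib-treated cells held 12555908 and 12691481. With 1 library a side there was no replicate check and no p-value, the labels name no batch, so that batch and condition cannot be told apart, and brackets give 95% intervals that cover counting error only, as the reads carry no molecular identifiers and need not each stand for a separate molecule. In bulk RNA, fewer cells that express a gene and less of its RNA per cell cannot be told apart. The markers of a mesenchymal-like line (VIM, CD44, CDH2, ZEB1 and AXL, 5 of 5 detected) summed to 4402 CPM with indisulam and 4048 CPM in the combination. EPCAM and CDH1, which mark epithelium, summed to 1.85 and 2.92 CPM. Of the 3 receptors that define other breast cancer classes, ESR1 stood at 0.239 and 1.11 CPM and PGR at 0.0598 and 0.209 CPM. ERBB2, also among them, stood at 109.6 and 113.4 CPM. CD3E, which marks T cells, had no read in either library. The 3 endothelial markers summed to 18.5 and 21.6 CPM, nearly all of it PECAM1 (17.5 and 20.4 CPM), while VWF stood at 0.957 and 1.18 CPM and CDH5 had no read in either.

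Addition of palbociclib shifted few genes by a large factor. The combination was called higher than indisulam, meaning that the ratio reached 2-fold and its counting interval did not include 1, in 315 genes (2.78% of those that passed) and lower in 239 (2.11%). At 4-fold or more there were 27 higher and 11 lower genes. The middle of the distribution stayed close to no difference, with a median log2 ratio of -0.03 and 95.1% of the genes within 2-fold. Of the genes called higher, 116 lay under 5 CPM with indisulam, and of those called lower, 54 lay under 5 CPM in the combination, so that these passed the filter through the library in which they were high. The shares of list members called, given below, include such genes. Among the 10945 genes at 5 CPM or more in both libraries, 199 were called higher and 185 lower. Calls were most frequent at low level: from 5 to 20 CPM 6.35% were higher and 3.59% lower, whereas at 100 CPM or more both shares were 1.09%.

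**Figure D1:**
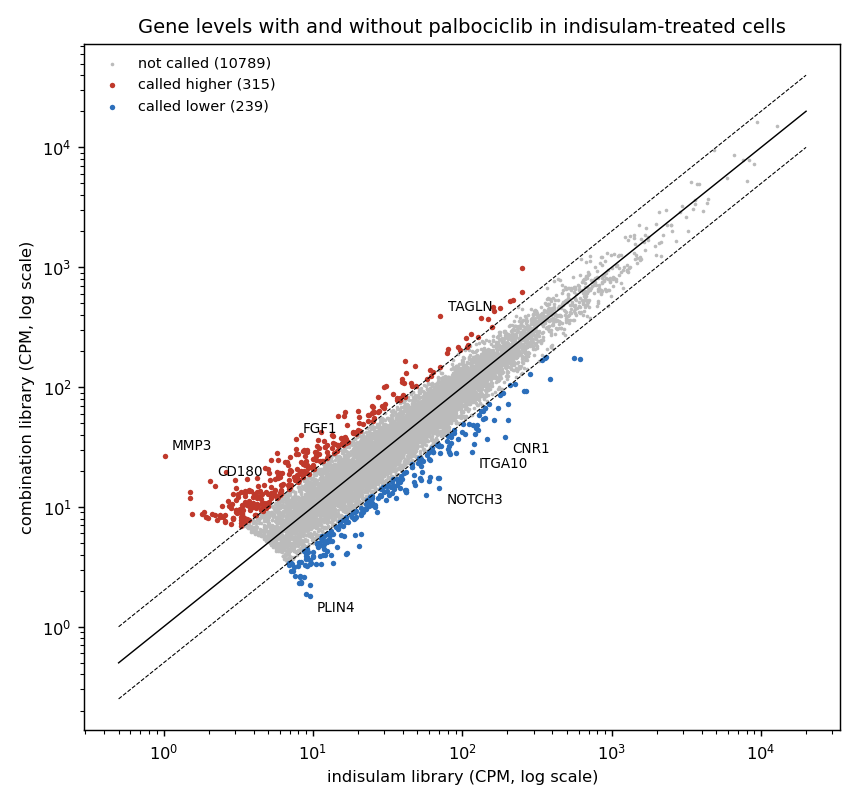
Level of each of the 11343 genes in the indisulam library (x axis, CPM, log scale) and in the combination library (y axis, CPM, log scale). The solid line marks equal levels and the dashed lines a 2-fold difference, and 315 red genes lie above and 239 blue genes below, most of them at low level.

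The gene with the highest ratio was MMP3 (ENSG00000149968, chr11:102835801-102843609, GRCh38, minus strand), which encodes the secreted protease stromelysin. It had 0.398 CPM in untreated cells, 1.26 CPM with palbociclib, 1.02 CPM with indisulam and 26.7 CPM in the combination, so that the combination stood alone. This was 24.6-fold above indisulam, at a log2 ratio of 4.62 [4.01, 5.51] from 17 and 383 reads. The pseudogene WTAPP1 overlaps MMP3 on the opposite strand. Without indisulam the log2 ratio for palbociclib was 1.5 [0.15, 3.47].

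Of the 12 highest genes, 4 are best known from immune cells. HLA-DRA, the alpha chain of an MHC class II molecule, had 1.5 CPM with indisulam and 13.4 CPM in the combination, with 0.239 CPM in untreated cells and 4.89 CPM with palbociclib. CD180, a surface receptor related to Toll-like receptors, had 43.4 CPM untreated, 226 CPM with palbociclib, 2.03 CPM with indisulam and 16.3 CPM in the combination. The ratio was thus 7.77-fold with indisulam present, at a level below that of untreated cells. SLAMF7, a receptor of lymphoid and myeloid cells, rose from 2.21 to 14.8 CPM (6.52-fold) and S100A9, a calcium-binding protein of myeloid cells, from 2.99 to 16.9 CPM (5.53-fold). Over the 4 leukocyte markers the summed level went from 21.5 CPM with indisulam to 15.7 CPM in the combination. PTPRC stood at 17.5 and 11.1 CPM, CD14 at 3.95 and 4.60 CPM, CD79A at 1 and 0 reads, and CD3E at 0. The part of such cells in these ratios was not tested.

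The other genes among the 12 highest have varied functions. TAGLN, an actin-binding protein of smooth muscle, had 47.3 CPM untreated, 167 CPM with palbociclib, 71.3 CPM with indisulam and 391 CPM in the combination, a 5.49-fold ratio with a log2 value of 2.46 [2.37, 2.55]. TAGLN shares part of its position with PCSK7, which lies on the other strand, and whether counting used strand is not given in the sources used here. FGF1, a growth factor, had 2 reads in untreated cells and went from 7.66 to 37.2 CPM when palbociclib was added to indisulam. PI3 (elafin, an elastase inhibitor) went from 2.63 to 19.4 CPM, MYO7B from 1.5 to 12 CPM, PDE1C from 1.56 to 8.77 CPM, MGAM from 5.74 to 28.3 CPM and ZC3H12B from 8.26 to 40.2 CPM. PDE1C was at 5.65 CPM in untreated cells and 5.67 CPM with palbociclib, so its indisulam library was the low value.

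The 12 lowest genes included receptors, regulators of fuel use and transcription factors. CNR1 (ENSG00000118432, chr6:88139864-88166347, GRCh38, minus strand), the cannabinoid receptor, had 206 CPM untreated, 60.7 CPM with palbociclib, 194 CPM with indisulam and 38.3 CPM in the combination. Both libraries with palbociclib were below both without it, and the log2 ratio was -2.34 [-2.47, -2.21] with indisulam and -1.76 [-1.88, -1.65] without. NOTCH3, a receptor of the Notch pathway, went from 69.9 to 14.4 CPM with indisulam present and from 92.0 to 44 CPM without it. PLIN4, a lipid droplet coat protein, was lowest in the combination at 1.81 CPM, against 9.51 CPM with indisulam, 26.4 CPM with palbociclib and 51.8 CPM untreated. PDK4, a kinase that restrains pyruvate dehydrogenase, fell 4.19-fold, from 9.57 to 2.23 CPM, and MLXIPL, a glucose-responsive transcription factor, fell 4.04-fold, from 16.8 to 4.11 CPM. PER3, a component of the circadian clock, went from 20.5 to 4.74 CPM.

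For 3 of these genes the library without indisulam did not show the same step. ITGA10, an integrin subunit, had 232 CPM untreated and 224 CPM with palbociclib, but 116 CPM with indisulam and 28.8 CPM in the combination. BCAM, a laminin receptor, had 9.32 and 15.1 CPM without indisulam and 16.6 and 4.04 CPM with it. EGR1 (ENSG00000120738, chr5:138465479-138469303, GRCh38, plus strand), an immediate-early transcription factor, had 247 and 287 CPM without indisulam and 146 and 37.0 CPM with it. The difference between the log2 ratios with and without indisulam was -1.96 [-2.13, -1.78] for ITGA10, -2.71 [-3.24, -2.19] for BCAM and -2.19 [-2.34, -2.04] for EGR1. The remaining genes of the 12 were MYBPC1 (69.6 and 17.3 CPM), NFATC4 (57.1 and 12.7 CPM) and RASD1 (9.04 and 1.88 CPM).

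**Figure D2:**
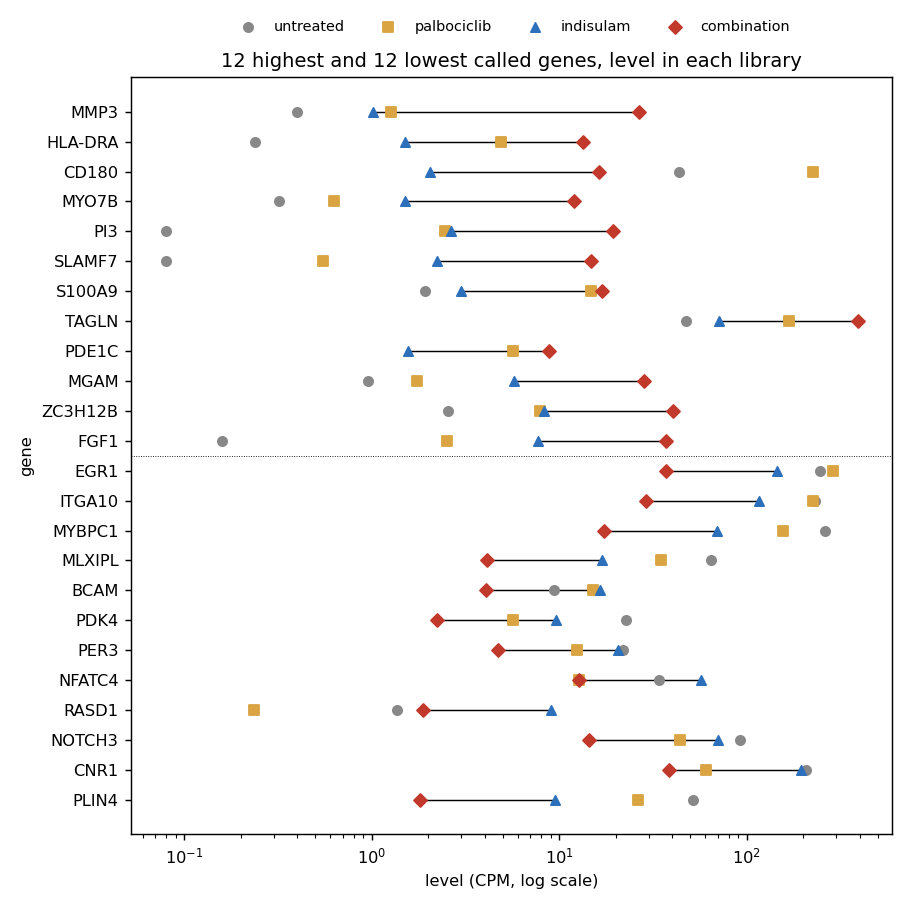
Level (CPM, log scale) of the 12 highest and 12 lowest called genes in the untreated, palbociclib, indisulam and combination libraries, with a line from indisulam to the combination. MMP3 reached 26.7 CPM in the combination against at most 1.26 CPM elsewhere, and ITGA10 had like levels without indisulam (232 and 224 CPM) but 116 and 28.8 CPM with it.

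Genes of mitosis stood lower in the combination, and by less than palbociclib lowered them without indisulam. Of 82 genes of mitosis, all of which passed the filter, 73 had a log2 ratio below 0, with a median of -0.49 against -0.03 over all genes that passed. Of the 82 genes, 7 were called lower (8.54%, against 2.11% of all genes) and 1 was called higher (1.22%, against 2.78%). In the absence of indisulam the median was -0.97, and 38 were called lower by palbociclib against untreated, where 3.34% of all genes were. The summed level of the 82 genes was 4157 CPM untreated, 2124 CPM with palbociclib, 5215 CPM with indisulam and 3859 CPM in the combination, so that the combination stayed close to untreated cells. The difference of the 2 palbociclib ratios was called higher in 16 of these genes and lower in none, against 2.51% higher and 2.49% lower over all genes.

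The lowest member was ASPM, a spindle pole protein, with 66.0 CPM untreated, 29.2 CPM with palbociclib, 121 CPM with indisulam and 40.4 CPM in the combination, a log2 ratio of -1.58 [-1.72, -1.45]. TROAP followed at -1.40 [-1.64, -1.17] and AURKB, a mitotic kinase, at -1.17 [-1.56, -0.82]. MKI67, the proliferation marker Ki-67, had 126 CPM untreated, 44.5 CPM with palbociclib, 246 CPM with indisulam and 129 CPM in the combination. Its log2 ratio was -0.93 [-1.01, -0.85] with indisulam present and -1.5 [-1.64, -1.36] without it, and it did not reach the 2-fold limit in the former. CENPI, a kinetochore protein encoded on the X chromosome, was the member called higher, with 9.88, 10.6, 6.88 and 16.8 CPM in untreated, palbociclib, indisulam and combination libraries.

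The letters of CHR elements and CCAAT boxes were counted in the promoters of these genes. In the 300 bases around the RefSeq start (250 before and 50 after), TTTGAA (CHR) was found on either strand in 46 of the 70 mitosis genes with a promoter sequence (65.7%), against 15.4% of all 27305 promoters and 9.75% of those of genes that passed the filter. CCAAT was found in 70.0% against 35.7%, and both together in 35 of the 70 against 6.08%. Among promoters of all genes called lower, TTTGAA was found in 11.6% and both together in 5.26%. Among those of genes called higher the shares were 14.2% and 4.44%. The sequences below lie upstream of the start of ASPM, NEK2 and MKI67, and they show where these letters fall. ASPM and MKI67 were taken by the naming rule, whereas NEK2, a centrosomal kinase called lower at -1.15, was chosen after its values were seen. Capitals mark TTTGAA and CCAAT or their reverse complements, and distances run from the match to the RefSeq start on GRCh38.p14.
ASPM, chr1:197146695-197146819, minus strand: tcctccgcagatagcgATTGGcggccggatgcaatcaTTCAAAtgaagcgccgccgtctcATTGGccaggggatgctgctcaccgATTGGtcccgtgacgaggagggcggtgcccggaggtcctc
NEK2, chr1:211675631-211675771, minus strand: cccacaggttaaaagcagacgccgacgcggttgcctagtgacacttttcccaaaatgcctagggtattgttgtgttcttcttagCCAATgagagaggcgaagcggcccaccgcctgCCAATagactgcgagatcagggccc
MKI67, chr10:128126424-128126573, minus strand: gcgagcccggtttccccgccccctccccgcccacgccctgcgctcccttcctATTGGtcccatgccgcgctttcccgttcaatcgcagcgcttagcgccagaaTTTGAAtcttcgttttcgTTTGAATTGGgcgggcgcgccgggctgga
ASPM held its CHR letters 113 bases before the start, with CCAAT boxes at 134, 90 and 65 bases. MKI67 held CHR letters at 47 and 29 bases and boxes at 98 and 24 bases, the last pair sharing a base. NEK2 held boxes at 66 and 34 bases and no TTTGAA in this window, which says only that these letters are not there. A match of letters is a description and not a bound site.

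Genes of DNA replication did not share the shift of the mitosis genes. Of 62 members that passed, 35 were above 0 and 27 below, with a median of 0.07, and the only one called was CDT1. CDT1, a licensing factor that loads the replicative helicase, had 25.2 CPM untreated, 9.93 CPM with palbociclib, 42.2 CPM with indisulam and 13.4 CPM in the combination, a log2 ratio of -1.65 [-1.90, -1.43]. Both libraries with palbociclib were below both without it. CDC6, its partner in licensing, went the other way, with 14.0, 25.8, 18.6 and 36.6 CPM, and at 0.97 [0.77, 1.18] it lay just under 2-fold. The E2F letters TTTNNCGC were found in 45.3% of the 53 replication promoters, against 6.90% of all promoters and 10.9% of those of genes that passed the filter. Among promoters of genes called higher and lower the shares were 7.56% and 6.32%. The CDT1 promoter is shown because its gene was the called member, with its E2F letters in capitals, 35 bases before the start.
CDT1, chr16:88803639-88803788, plus strand: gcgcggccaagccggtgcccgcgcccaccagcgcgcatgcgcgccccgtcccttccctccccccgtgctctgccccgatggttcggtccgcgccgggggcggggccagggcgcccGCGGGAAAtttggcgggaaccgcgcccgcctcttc

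Cyclins D1, D2 and E1 were higher where palbociclib had been added. Of 16 genes of the cyclin D, CDK4/6 and RB axis that passed, 3 were called higher (18.8%, against 2.78% of all genes) and none lower. CCND1 (ENSG00000110092, chr11:69641156-69654474, GRCh38, plus strand), cyclin D1, had 171 CPM untreated, 449 CPM with palbociclib, 218 CPM with indisulam and 529.8 CPM in the combination, a 2.43-fold ratio with a log2 value of 1.28 [1.23, 1.34]. LTO1 overlaps CCND1 on the opposite strand. CCND2 had 20.7, 51.9, 15.4 and 37.4 CPM in the same order, and CCNE1, cyclin E1, had 3.50, 14.7, 5.27 and 14.7 CPM. For all 3 genes both palbociclib libraries lay above both others. The difference of the log2 ratios with and without indisulam was -0.11 [-0.20, -0.02] for CCND1, -0.05 [-0.35, 0.25] for CCND2 and -0.57 [-1.16, 0.02] for CCNE1. CCND3, cyclin D3, had 122, 173, 98.5 and 85.6 CPM in the same order. Its log2 ratio was -0.20 [-0.31, -0.10] with indisulam and 0.51 [0.41, 0.60] without it, a difference of -0.71 [-0.85, -0.57].

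None of the kinases and inhibitors of the axis that passed was called. CDK6 went from 60.9 to 107 CPM, a log2 ratio of 0.81 [0.70, 0.93]. CDK4 stood at 119 and 106 CPM, CDK2 at 34.8 and 35.4 CPM, RB1 at 49.8 and 44.6 CPM and CDKN1A, the inhibitor p21, at 40.6 and 47.1 CPM. Other inhibitors were lower. CDKN1B had 29.1 and 15.7 CPM (-0.88 [-1.12, -0.66]), CDKN2D 8.68 and 4.81 CPM (-0.84 [-1.29, -0.43]) and CDKN2C 28.5 and 20.3 CPM (-0.49 [-0.71, -0.28]). CCNA2, cyclin A2, had 40.5, 10.0, 55.3 and 29.2 CPM, and its log2 ratio of -0.92 [-1.09, -0.75] with indisulam compared with -2.01 [-2.31, -1.74] without it. CCNE2 did not pass the filter, at 3.35 and 5.78 CPM. None of the 8 E2F and DP factors that passed was called, the highest being E2F7 at 0.84 [0.62, 1.06] and the lowest E2F5 at -0.64 [-0.97, -0.32]. E2F8 did not pass the filter, at 3.83 and 1.74 CPM, but its ratio met the limit for a lower call at -1.11 [-1.87, -0.45]. None of the 10 genes around the CDK-activating kinase and RBM39 was called. RBM39 mRNA stood at 376 CPM with indisulam and 305 CPM in the combination, and DCAF15 at 21.2 and 16.6 CPM. Of 18 genes of lamins and senescence chromatin, HMGB2 was called lower, from 137 to 54.3 CPM, and LMNB1, lamin B1, went from 43.0 to 26.1 CPM at -0.72 [-0.90, -0.54].

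INSIG1, SREBF1 and SREBF2, regulators of sterol and fatty acid synthesis, were lower in both comparisons, whereas SCAP, another regulator, was not. INSIG1 (ENSG00000186480, chr7:155297776-155310235, GRCh38, plus strand), which retains the SREBP machinery in the endoplasmic reticulum, had 238 CPM untreated, 36.6 CPM with palbociclib, 121 CPM with indisulam and 33.8 CPM in the combination, a log2 ratio of -1.83 [-1.98, -1.69]. SREBF1, the transcription factor of fatty acid synthesis, had 432, 167, 203 and 53.4 CPM in that order, and SREBF2, that of sterol synthesis, had 274, 126, 173 and 66.9 CPM. SCD, a fatty acid desaturase, had 1206, 227, 557 and 174 CPM. In each of these genes the combination was the lowest of the 4 libraries and the untreated library the highest. SREBF1 and SREBF2 each share positions with a gene on the opposite strand (RAI1 and SREBF2-AS1). Another desaturase, SCD5, was called higher, at 4.01 and 12.7 CPM. SCAP had 84.9, 100.3, 86.6 and 88.2 CPM in untreated, palbociclib, indisulam and combination libraries. Its log2 ratio was 0.03 [-0.08, 0.13] with indisulam and 0.24 [0.12, 0.36] without it.

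Most enzymes of the sterol pathway did not reach the limit. Of 22 cholesterol genes that passed, 17 were below 0 with a median of -0.30, and 3 were called, all lower (13.6%, against 2.11% of all genes). INSIG1 and SREBF2 were among these 3. NSDHL (33.7 and 44.6 CPM) had the highest ratio. Without indisulam the median was -0.70, with 6 called lower. Of 20 genes of fatty acid synthesis and desaturation, 1 was called higher (5%, against 2.78% of all genes) and 2 lower (10%, against 2.11%). Of 11 lipid droplet and PPARG genes, 2 were called higher (ANGPTL4, 3.53 and 13.1 CPM, and FABP4, 3.29 and 8.22 CPM) and 2 lower (PLIN4 and PPARG, the latter 58.1 and 27.2 CPM). Each share was 18.2%, against 2.78% higher and 2.11% lower over all genes. ANGPTL4 and FABP4 lay under 5 CPM with indisulam and PLIN4 in the combination, so that each passed the filter through the library in which it was high. The sterol regulatory element letters TCACNCCAC were found in 1.15% of all promoters and in 1 of the 16 cholesterol genes with a promoter, SREBF2, which is therefore shown with the element in capitals, 133 bases before the start.
SREBF2, chr22:41832955-41833104, plus strand: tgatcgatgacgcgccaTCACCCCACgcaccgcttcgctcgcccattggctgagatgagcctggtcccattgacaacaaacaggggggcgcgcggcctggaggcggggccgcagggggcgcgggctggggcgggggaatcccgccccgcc

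Secreted proteases cut matrix and coagulation proteins, and serpins, TIMPs and other inhibitors restrain them. Of 26 proteases and inhibitors that passed, 10 were called higher (38.5%, against 2.78% of all genes) and 3 lower (against 2.11%), with a median log2 ratio of 0.53. Beside MMP3 and PI3, the members with the highest ratios included SERPINB2, a plasminogen activator inhibitor, which had no read in untreated cells, 3 reads with palbociclib, 2.69 CPM with indisulam and 11.1 CPM in the combination. MMP3, PI3 and SERPINB2 lay under 5 CPM with indisulam, so that they passed the filter only through the combination library, and the share called higher includes them. MMP1, interstitial collagenase, had 1.67, 1.26, 41.8 and 129.7 CPM in untreated, palbociclib, indisulam and combination libraries, and PLAT, tissue plasminogen activator, had 170.2, 156, 164 and 434 CPM. These 2 genes were chosen after their values were seen. In both, palbociclib without indisulam gave a log2 ratio below 0, at -0.39 [-1.44, 0.60] for MMP1 and -0.13 [-0.22, -0.04] for PLAT, against 1.63 [1.51, 1.76] and 1.41 [1.34, 1.47] with it.

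The members called lower were MMP17 (11.7 and 4.74 CPM), TFPI (358 and 174 CPM), an inhibitor of tissue factor, and MMP7 (15.9 and 7.73 CPM), which fell short of the limit with upper-quartile factors. MMP7, matrilysin, had 9.16 CPM untreated and 18.5 CPM with palbociclib, so that it stood higher with palbociclib without indisulam and lower with it. The AP-1 letters TGANTCA were found in 6 of the 14 protease promoters at hand (42.9%), against 7.76% of all promoters and 4.58% of those of genes that passed the filter. The shares were 12.4% for genes called higher and 5.79% for those called lower. The promoter of MMP7 is shown for its AP-1 letters, 67 bases before the start.
MMP7, chr11:102530751-102530897, minus strand: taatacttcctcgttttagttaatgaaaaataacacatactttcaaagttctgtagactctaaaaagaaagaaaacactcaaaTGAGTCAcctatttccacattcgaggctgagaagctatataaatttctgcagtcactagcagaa

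AP-1 subunits and other immediate-early genes were themselves among the lower genes. Of 28 genes of MAPK feedback and AP-1 that passed, none was called higher and 5 were called lower (17.9%, against 2.11% of all genes), and 22 were below 0 with a median of -0.40 against -0.03. FOS had 190.3 CPM untreated, 208 CPM with palbociclib, 59.7 CPM with indisulam and 16.4 CPM in the combination. FOSB, which ERCC1 overlaps on the opposite strand, had 29.5, 64.1, 11.8 and 4.46 CPM in that order. EGR1, described above, showed the same order of libraries. For all 3 genes both libraries with indisulam lay below both without it, and palbociclib went with a further drop only where indisulam was present. The others called lower were CEBPD (83.9 and 34.3 CPM) and ETV4 (52.2 and 25.6 CPM), which were chosen after their values were seen. FOSL1, another AP-1 subunit, had the highest ratio of the list at 0.40 [0.27, 0.53].

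Matrix and contractile genes were called in both directions. Of 40 genes of extracellular matrix and laminins, 3 were called higher (7.5%, against 2.78% of all genes) and 1 lower (2.5%, against 2.11%). TNC, tenascin C, had 189 CPM untreated, 437 CPM with palbociclib, 253 CPM with indisulam and 981 CPM in the combination, a 3.88-fold ratio. DELEC1 overlaps TNC on the opposite strand. COL17A1, a collagen of hemidesmosomes, had 7.12 and 19.99 CPM and VCAN, versican, 157 and 317 CPM, and with TMM factors VCAN had a log2 ratio of 0.99, below the limit. NID1, nidogen, was called lower, from 126 to 47.8 CPM. Of 17 contractile and sarcomere genes, 4 were called higher (23.5%, against 2.78% of all genes) and 2 lower (11.8%, against 2.11%). Beside TAGLN, the smooth muscle actins ACTA2 (23.2 and 58.1 CPM) and ACTG2 (94.1 and 216 CPM) were higher. These genes encode near-identical proteins, and whether they shared reads was not tested. PDGFRB, a marker of perivascular cells beside ACTA2, was lower at 80.4 and 39.2 CPM.

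Of 23 cytokine and chemokine genes that passed, 1 was called higher (4.35%, against 2.78% of all genes) and 1 lower (4.35%, against 2.11%). CSF2, which encodes GM-CSF, had 1 read in untreated cells, 3.70 CPM with palbociclib, 16.4 CPM with indisulam and 61.8 CPM in the combination, and its log2 ratio of combination to indisulam was 1.91 [1.72, 2.12]. IL24, which FCMR overlaps on the opposite strand, had 2 reads in untreated cells and 1 with palbociclib, 48.2 CPM with indisulam and 15.1 CPM in the combination, a log2 ratio of -1.67 [-1.90, -1.45]. IL24 was thus detected above 3 reads only in the libraries with indisulam. CXCL1 was just short of the limit at 45.6 and 86.8 CPM. The other members lay between -0.54 (CSF1) and 0.92 (CXCL12).

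Genes of the amino acid response did not repeat the fall that palbociclib gave on its own. ATF4 is a transcription factor that raises amino acid transport and synthesis under stress. Of 33 genes of ATF4 and ER stress, 3 were called higher (9.09%, against 2.78% of all genes) and none lower with indisulam present. Without indisulam none was called higher and 10 were called lower, where 3.34% of all genes were. The median log2 ratio was 0.15 with indisulam and -0.58 without it. SLC3A2, the heavy chain of amino acid exchangers, had 121 CPM untreated, 83.1 CPM with palbociclib, 252 CPM with indisulam and 616 CPM in the combination. SLC7A5, a light chain that pairs with it, had 124, 59.0, 128 and 259.7 CPM, and CHAC1, which degrades glutathione, 12.3, 4.02, 4.67 and 10.1 CPM. ATF4 itself was at -0.53 with and -0.58 without indisulam.

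Beside CHAC1, the widest gaps between the palbociclib ratios in this list were those of enzymes of serine and asparagine synthesis, and these 3 were chosen after their values were seen. PHGDH had 152 CPM untreated, 20.6 CPM with palbociclib, 85.4 CPM with indisulam and 83.1 CPM in the combination. ASNS had 140.3, 21.9, 58.7 and 54.6 CPM, and PSAT1 106, 20.4, 39.5 and 77.0 CPM. In all 3 the palbociclib library was the lowest. The difference of the log2 ratios was 2.83 [2.62, 3.05] for PHGDH, 2.57 [2.34, 2.80] for ASNS and 3.33 [3.10, 3.57] for PSAT1. Over the 33 genes of the list this difference was called higher in 10 and lower in none, against 2.51% and 2.49% of all genes.

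Transcripts of cytosolic ribosomal proteins were lower by a small and even margin. None of the 79 genes was called, and 78 had a log2 ratio below 0, with a median of -0.38 against -0.04 for palbociclib without indisulam. Their summed level was 66853 CPM untreated, 65008 CPM with palbociclib, 65909 CPM with indisulam and 51295 CPM in the combination, so that the combination was the low library of the 4. RPL3 had the lowest ratio together with RPL21, at 1988 and 1256 CPM, a log2 value of -0.66 [-0.69, -0.64], and RPS10 the highest at 0.01 [-0.20, 0.23]. Many of these genes have processed copies elsewhere in the genome, so that their own levels are uncertain. Of 18 host genes of small nucleolar RNAs, 16 were below 0 with a median of -0.40 and none was called, TAF1D being the lowest at -0.97 [-1.04, -0.90].

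Ribosome biogenesis genes did not share the shift, with 23 of 38 above 0, a median of 0.10 and 1 called lower, FBL, a nucleolar methyltransferase, from 133 to 63.0 CPM. Of 54 genes of the spliceosome and SR proteins, 43 were below 0 with a median of -0.20, and none was called. SF3A2 was the lowest at 75.9 and 40.1 CPM. Of 13 mitochondrially encoded genes, 12 were above 0 with a median of 0.24. MT-CO3 went from 4870.2 to 9581 CPM, while MT-ND5 went from 3237 to 2002 CPM. These genes together took 4.90% of the gene counts with indisulam and 6.55% in the combination, and leaving them out of the totals moved no median of the other lists by more than its counting error.

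**Figure D3:**
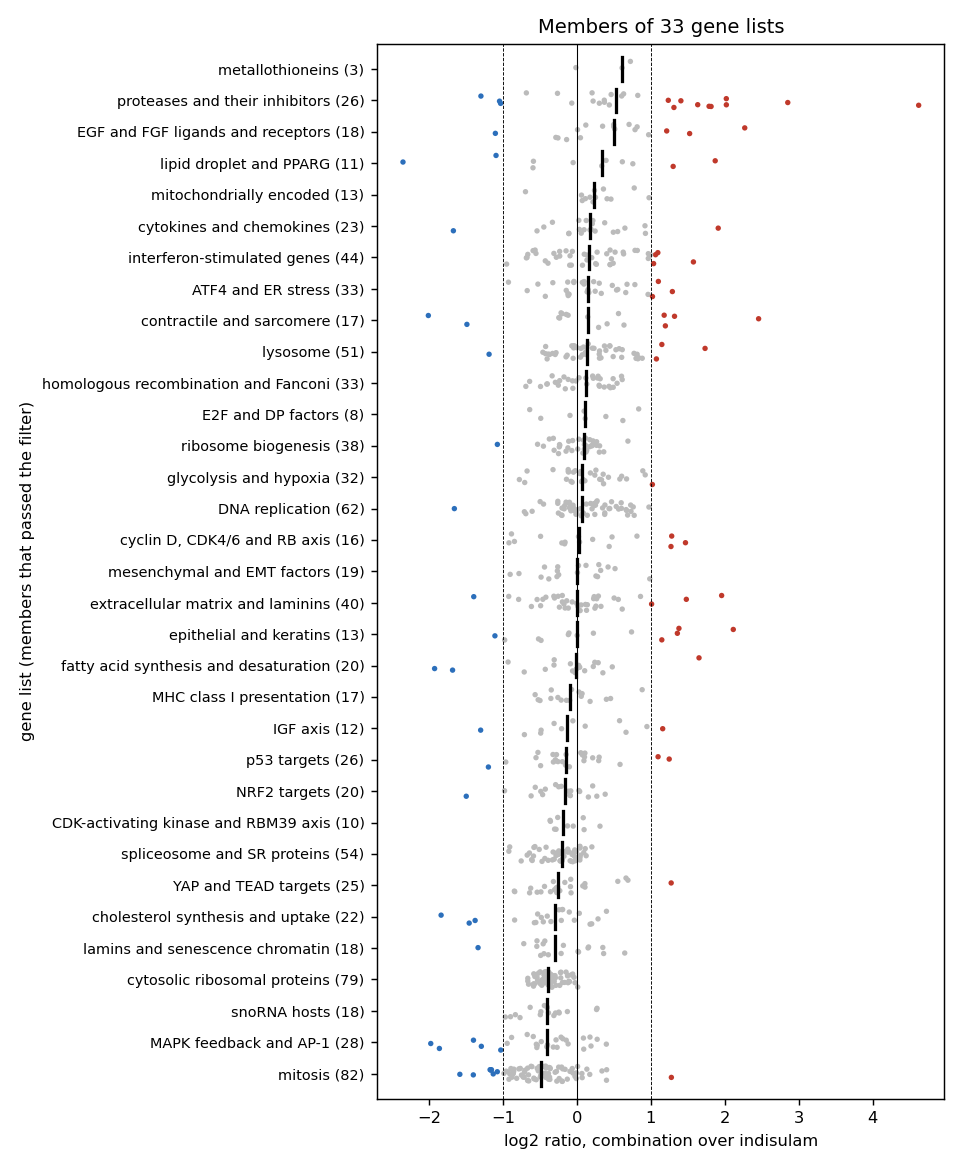
Log2 ratio of combination to indisulam for the members of 33 gene lists that passed the filter (points, red called higher, blue called lower), with the list's median as a bar and 2-fold as dashed lines. Mitosis has the lowest median (-0.49) and the 79 ribosomal protein genes lie close together around -0.38, whereas proteases spread from -1.30 to 4.62.

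In the remaining lists between 0 and 4 members were called higher. Over all genes that passed, 2.78% were called higher and 2.11% lower. Of 44 interferon-stimulated genes, 4 were called higher (9.09%) and none lower, with a median of 0.17. RSAD2 (3.41 and 10.3 CPM), HERC6 (16.4 and 35.1 CPM) and IFIT3 (64.0 and 134 CPM) had the highest ratios, and IFITM2 (114 and 58.8 CPM) the lowest. Of 51 lysosome genes, 3 were called higher (5.88%) and 1 lower, with a median of 0.13. GPNMB, a lysosomal membrane glycoprotein, had 3.11 CPM untreated, 69.1 CPM with palbociclib, 30.9 CPM with indisulam and 103 CPM in the combination, and GUSB, a glucuronidase, was lower at 33.5 and 14.7 CPM. No MHC class I gene of 17 was called, and the median was -0.10.

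Of 18 genes in a list of EGF, FGF and other growth factor ligands and receptors, 3 were called higher (16.7%) and 1 lower, with a median of 0.50. NRG1, neuregulin, had 13.5 CPM untreated, 22.9 CPM with palbociclib, 13.6 CPM with indisulam and 39.2 CPM in the combination. The member called lower was PDGFA, a platelet-derived growth factor and not of the EGF or FGF family, at 46.1 and 21.4 CPM. In the IGF axis IGFBP5 was higher (36.3 and 81.3 CPM) and IRS2 lower (60.4 and 24.5 CPM), among 12 genes with a median of -0.13. Of 26 p53 targets, TIGAR (5.21 and 12.5 CPM) and TP53I3 (8.62 and 18.5 CPM) were higher and BBC3 (10.8 and 4.67 CPM) was lower, with a median of -0.15. Of 13 epithelial genes and keratins that passed, 4 were called higher (30.8%) and 1 lower. DSP, desmoplakin, went from 10.4 to 26.8 CPM and CLDN1 from 46.0 to 102 CPM, while KRT86, which has close paralogs, went from 42.1 to 19.5 CPM.

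Among 25 YAP and TEAD targets the median was -0.26, and ANKRD1, called higher at 114 and 277 CPM, was the only call. Of 20 NRF2 targets 1 was called, ABCC3, an export pump, at 547 CPM untreated, 735 CPM with palbociclib, 259.8 CPM with indisulam and 92.2 CPM in the combination, and the median was -0.16. Of 32 genes of glycolysis and hypoxia 1 was called, PFKFB4, higher at 38.3 and 77.8 CPM, and the median was 0.08. No gene was called among 33 of homologous recombination and Fanconi repair (median 0.12), 19 mesenchymal and EMT factors (median 0.01) and 3 metallothioneins, of which MT2A stood at 182, 61.2, 118 and 195 CPM in untreated, palbociclib, indisulam and combination libraries. The medians of fatty acid synthesis, extracellular matrix, epithelial and mesenchymal lists lay within 0.02 of 0 and changed sign in 2 of 5 alternative settings of scaling and pseudocount, and those of the other 29 lists kept their sign in all 5.

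The palbociclib step was next set against the same step without indisulam, which shares no library with it. Over the same 11343 genes, palbociclib against untreated was called higher in 447 (3.94%) and lower in 379 (3.34%). Of these, 141 genes were called higher in both comparisons, or 44.8% of those called higher with indisulam and 31.5% of those called higher without. Another 99 were called lower in both, or 41.4% and 26.1%. Across the genes the log2 ratios correlated at 0.55 (Pearson) and 0.52 (Spearman), over genes of 4 libraries that are not independent replicates. Of the 315 genes called higher with indisulam, 269 were above 0 without it, and of the 239 called lower, 213 were below 0.

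Few genes were called in opposite directions, 6 higher with and lower without indisulam and 6 the reverse. ABCC9, a subunit of potassium channels, had 4.78 CPM untreated, 1.73 CPM with palbociclib, 5.27 CPM with indisulam and 24.8 CPM in the combination. KRT15, a basal keratin, had 10.7, 5.2, 4.79 and 21.0 CPM, and TSPAN13 20.3, 9.69, 9.10 and 22.3 CPM, so that in both the pair of single-drug libraries was low and the combination was near or above untreated cells. In the other direction LOXL4, a lysyl oxidase, had 10.1, 45.3, 8.92 and 4.04 CPM, SNED1 65.9, 179, 38.1 and 16.0 CPM, and F2RL3, a thrombin receptor, 1.75, 3.86, 11.8 and 4.87 CPM. For LOXL4 and SNED1 the palbociclib library alone was high. CHAC1 and FOSB, given above with their lists, were the other members of the 5 widest each way, together with the pseudogene CES1P1 (9.80, 3.39, 2.21 and 4.81 CPM) and CPAMD8 (5.58, 14.4, 4.19 and 1.53 CPM), which passed the filter only over all 4 libraries.

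**Figure D4:**
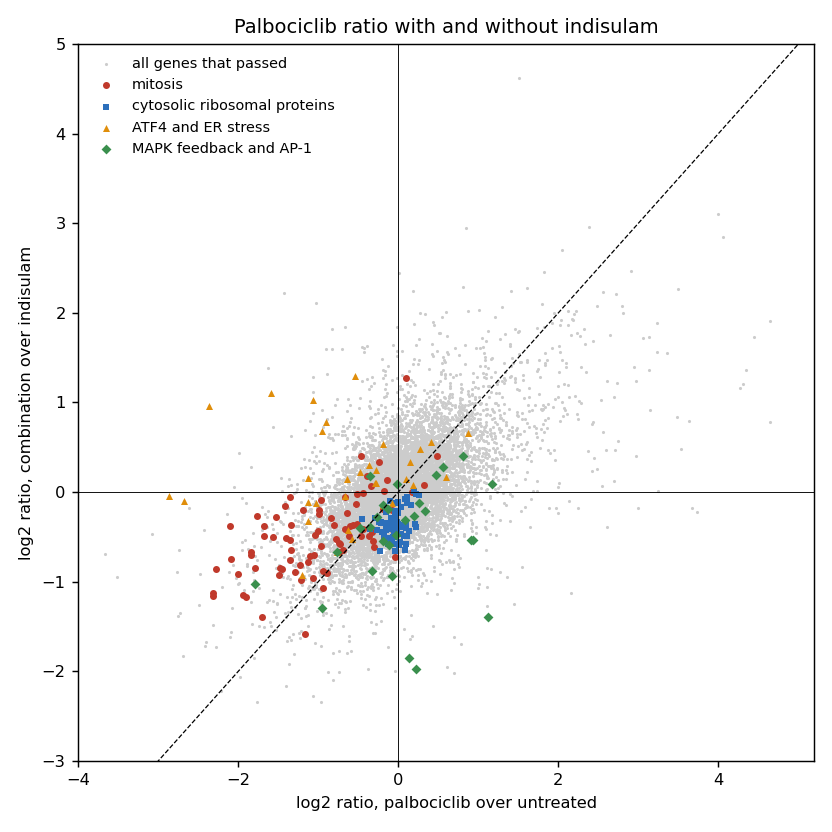
Log2 ratio of palbociclib to untreated (x axis) and of combination to indisulam (y axis) for each gene, with members of 4 lists in colour and equal ratios as a dashed line. Mitosis genes lie to the left with medians of -0.97 and -0.49, ribosomal protein genes lie near 0 on the x axis and below 0 on the y axis (-0.04 and -0.38), and genes of ATF4 and ER stress lie mostly above the line (-0.58 and 0.15).

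Position and base composition went with small shifts. The 400 genes of the X chromosome that passed had a median log2 ratio of 0.27, with 281 (70.2%) above 0, 30 called higher (7.5% against 2.78% of all genes) and 6 lower. Palbociclib without indisulam gave a median of 0.03 for them. Indisulam against untreated gave a median of -0.12 for them and of 0.08 over all genes that passed. That comparison uses the same indisulam library, so its medians are not independent of those of combination to indisulam. TSC22D3, a glucocorticoid-responsive gene on this chromosome, was lower at 386 and 116 CPM, and it was chosen after its values were seen. The 725 genes of chromosome 19 had a median of -0.18, with 31 called lower (4.28%) and 11 higher, and -0.05 without indisulam.

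Beside these values, the ratio moved with the GC content of the longest annotated transcript. With the genes cut by GC content into 5 bins of like size, from the lowest to the highest, the median log2 ratio was 0.03, 0.03, 0.03, -0.05 and -0.18. The Spearman correlation with GC was -0.17 for the combination against indisulam and -0.02 for palbociclib against untreated, over 11284 genes. Within the bins the X chromosome had medians of 0.36, 0.37, 0.33, 0.11 and 0.07, each above that of all genes in the bin. With each gene set against the median of its own bin, the median was -0.38 for ribosomal protein genes and -0.49 for mitosis genes, and 324 genes were called higher and 191 lower. This centring was chosen after the data were seen, and the part of base composition in the ratios was not tested further.

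**Figure D5:**
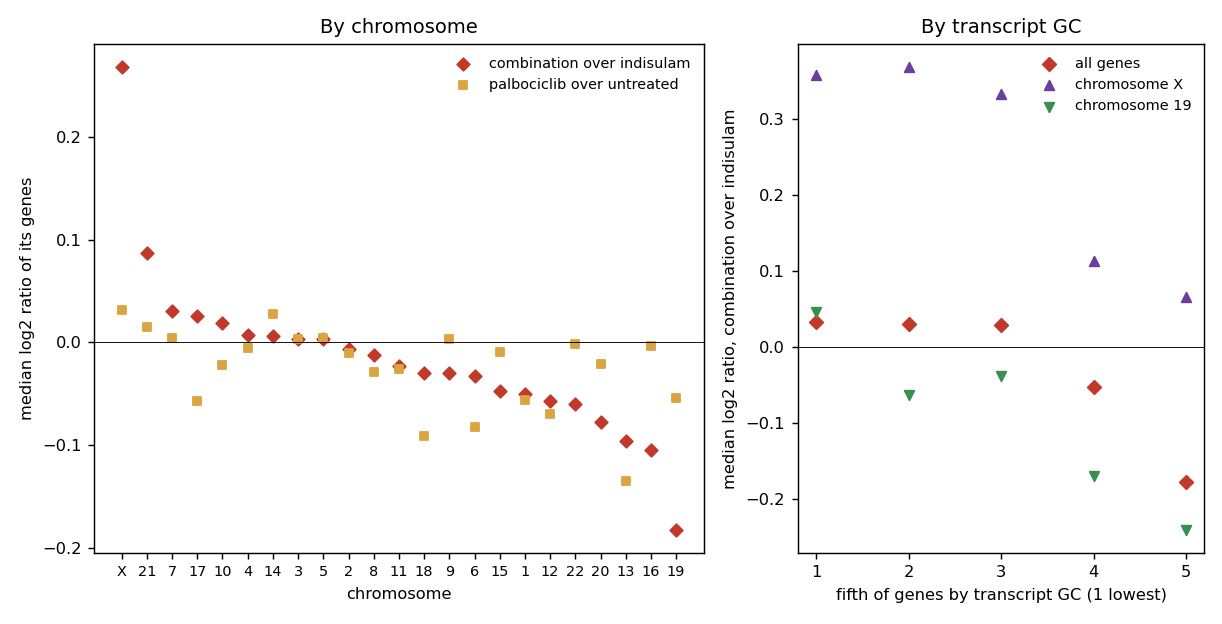
Left, median log2 ratio of the genes of each chromosome for combination over indisulam (diamonds) and palbociclib over untreated (squares). Right, median log2 ratio of combination over indisulam by bin of transcript GC content (5 bins) for all genes, the X chromosome and chromosome 19. The X chromosome stands highest at 0.27 and chromosome 19 lowest at -0.18, and within every bin the X chromosome lies above all genes.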

How the data were processed

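RNA from SUM159 cells was sequenced from 4 libraries, 1 per condition, taken from the sample labels. The authors prepared stranded poly(A) libraries, aligned reads to GRCh38 and, per the submitters' processing notes, used TopHat2 (2.1) and HTSeq. The deposited values are raw counts per Ensembl gene, not normalized. The strand setting, the annotation release and whether technical duplicates were pooled are not given in the sources used here. Tallies of reads in no gene, in several genes or at several places were kept out of the totals.

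Counts were divided by the library's gene total and scaled to the mean total of the 4 libraries, and 1 scaled count was added before log2 ratios, which understates the change of low genes. Ratios have exact conditional (Clopper-Pearson) 95% counting intervals, and differences of ratios have a normal approximation. A floor of 3 counts is 0.180 CPM with indisulam and 0.209 CPM in the combination. A gene was called at 2-fold or more with an interval excluding 1. The calls were tested on simulated data. The 33 gene lists, the markers and the comparison were chosen with earlier results of these data known. Named genes were the 12 highest and 12 lowest called, the 3 highest and 3 lowest of each list (all members of lists of up to 20 genes), 12 genes of the cell cycle and of the drugs' targets (MKI67, LMNB1, RBM39, DCAF15, CDKN1A, CDK2, CDK4, CDK6, CCND1, CCNE1, CCNE2 and RB1), and the 5 largest opposite differences each way. A few others were named after their values were seen. Positions and symbols are from GENCODE release 44, promoters from RefSeq. Promoter bases that GENCODE places inside the gene are not printed. Alternatives were TMM and upper-quartile factors (edgeR 4.0.16), size factors (DESeq2 1.42.0), a total without mitochondrial genes, other pseudocounts, thresholds and filters, and, chosen after seeing the data, centring on GC content and recounts of the other palbociclib comparisons. Python 3.11.15, numpy 2.4.6, pandas 2.3.3, scipy 1.17.1, matplotlib 3.10.9 and R 4.3.3 were used. A few genes that the naming rule takes are not reported here.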

Additional observations from a re-analysis of the deposited data

Results flagged for a closer look

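In 10 genes the palbociclib step went one way with indisulam and the other way without it, each from 1 library a side, and the difference was not tested against replicate spread. The log2 ratio with indisulam less that without was 3.65 for ABCC9, 3.14 for KRT15, 2.69 for CHAC1, 2.61 for CES1P1 and 2.35 for TSPAN13. It was -3.28 for LOXL4, -2.77 for CPAMD8, -2.69 for SNED1, -2.51 for FOSB and -2.38 for F2RL3. These were the 5 widest each way among 7 genes called in opposite directions each way with a filter over all 4 libraries. Reads outside annotated genes, which no comparison used, made up 0.694% of the indisulam library and 0.671% of the combination library.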

How the results depend on the processing

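The number of called genes depended on the threshold and the filter. At 1.5-fold it was 1079 higher and 1047 lower, with a mean of at least 1 CPM 800 and 447, at 20 CPM 103 and 119, and without a filter 1304 and 625. With other scalings, a pseudocount of 5 or centring on GC content, the counts stayed within 1.5 times 315 and 239, while the share of calls that were higher ran from 54.8% (TMM) to 62.9% (GC centring), against 56.9%. The median over all genes moved by -0.02 to 0.03. Of 231 recomputed list medians, 225 moved by less than their counting half-width. The others were mitochondrially encoded genes (0.27 with upper-quartile factors, 0.26 without mitochondrial genes in the total and 0.21 with GC centring), epithelial genes and keratins (0.50 at 1 CPM and 0.18 with GC centring) and glycolysis (0.17 with GC centring). The cause was not tested. GC centring was chosen after seeing the data. Of 339 named genes, 332 kept their call in all 5 settings of scaling and pseudocount, and no call turned its direction. CD36 and E2F8, which did not pass the filter, and VCAN and MMP7 lost a call in 1 setting each, and INHBA, MT-CO3 and CDC6 gained one. No paired analysis was possible because each condition had 1 library. For the same reason no library could be left out, and intervals cover counting error only.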
